A study of Mus musculus with 12 samples.

Results

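Enzymes of glycolysis were described across 4 genotype-by-diet groups of mouse livers. The members were the genes Gpi1, Pfkl, Aldoa, Tpi1, Pgk1, Pgam1, Pklr and Ldha, taken as a list of gene names that was drawn up with earlier results of these data known. Of these 8 genes, 7 had probe sets in the gene table used, 11 probe sets in all, out of 19938 genes tested. Gpi1, the isomerase that follows glucose phosphorylation, was not analysed here. The RNA came from whole livers of 129Sv mice aged 12 weeks that had been fasted for 24 h, and was hybridised to 12 Affymetrix arrays, 3 in each of 4 groups. The groups were SIRT3WT mice (the wild type, titled control) and SIRT3KO mice (the knockout, named for SIRT3, a deacetylase of mitochondria). Each genotype received either a standard diet or, from weaning, a Western diet rich in fat (42% fat), called the high-fat diet here. Sex, the time of day of killing and the cells in which the deletion acts are not given in the sources used here. All groups share the fast, so the fed state was not measured. The labels name no separate litters or cultures, so the p-values describe the spread between these arrays.

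Glycolysis is the cytosolic route that splits glucose into pyruvate, and lactate dehydrogenase links pyruvate to lactate. In the liver the same route runs backwards during fasting to make glucose. Most steps are reversible and shared by both directions, whereas phosphofructokinase and pyruvate kinase each catalyse a step of glycolysis that cannot run backwards and is opposed by separate enzymes. The liver uses particular isoforms of some of these enzymes, among them the phosphofructokinase Pfkl and the pyruvate kinase Pklr, while aldolase A (Aldoa) is the main aldolase of muscle and red cells.

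The values are log2 signals, so a difference of 1 is a doubling, and a level of 1 gene cannot be set against that of another gene on these arrays. A gene was called at a limma adjusted p under 0.05 over all 19938 genes. Comparisons of genotype lie within each diet. Comparisons of diet lie across what appear to be separate normalization runs of the authors. In pairs of arrays from different diets, 0 to 1 probe sets had exactly the same value on both arrays, against 11 to 31 in pairs within the standard diet and 2 to 15 within the high-fat diet, and 335 probe sets lack values on all standard-diet arrays only. Diet and run therefore cannot be told apart. Sirt3, the targeted gene, averaged 9.05 in standard-diet wild type (SD 0.0829, n = 3) against 8.90 in standard-diet knockout arrays (SD 0.0681, n = 3). With the high-fat diet its means were 9.18 (wild type, SD 0.0882, n = 3) and 8.76 (knockout, SD 0.234, n = 3). It was called on neither diet (limma adjusted p = 0.66 and 1). Where its probes lie relative to the deletion is not given, so these values do not check the labels. The 10 measured hepatocyte markers had list means between 13.23 and 13.37 on every array. Standard-diet knockout replicate 2 stood apart by its skeletal muscle markers, and member differences that rest on it are also given without it.

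The start regions of 5 members are shown because 4 of them (Ldha, Pgk1, Aldoa and Tpi1) had the lower signals on the high-fat diet described below, and Pklr, a liver isoform, was not called between the diets. The sequences are from RefSeq on GRCm38.p6 and run from 250 bases before to 50 after an annotated start, written 5′ to 3′ on the strand of the gene. Capitals mark ACGTG on either strand, which is the core of the element bound by hypoxia-inducible factors and of many E-boxes, and in Pklr they mark CACGGG followed 5 bases later by CCCGTG, an arrangement known from the carbohydrate response element of this gene. Overlapping matches appear as 1 run of capitals.
Ldha, chr7:46845554-46845853, plus strand: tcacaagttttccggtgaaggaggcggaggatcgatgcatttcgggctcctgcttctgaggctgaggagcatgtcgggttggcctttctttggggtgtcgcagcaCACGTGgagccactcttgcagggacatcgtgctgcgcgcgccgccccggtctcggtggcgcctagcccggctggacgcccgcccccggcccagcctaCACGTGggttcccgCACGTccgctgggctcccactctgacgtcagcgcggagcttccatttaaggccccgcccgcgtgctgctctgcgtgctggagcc
Pgk1, chrX:106186850-106187149, plus strand: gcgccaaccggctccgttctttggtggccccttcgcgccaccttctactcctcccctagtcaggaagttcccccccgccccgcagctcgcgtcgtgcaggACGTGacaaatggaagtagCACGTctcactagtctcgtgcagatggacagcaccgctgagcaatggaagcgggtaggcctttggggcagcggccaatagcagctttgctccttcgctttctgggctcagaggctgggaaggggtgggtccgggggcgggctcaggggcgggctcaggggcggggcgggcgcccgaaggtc
Aldoa, chr7:126799205-126799504, minus strand: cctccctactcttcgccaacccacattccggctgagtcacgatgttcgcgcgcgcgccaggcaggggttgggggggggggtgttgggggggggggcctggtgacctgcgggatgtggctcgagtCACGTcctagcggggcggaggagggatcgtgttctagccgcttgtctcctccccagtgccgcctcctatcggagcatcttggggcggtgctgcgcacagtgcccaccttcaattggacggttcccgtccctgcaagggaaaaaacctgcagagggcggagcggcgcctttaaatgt
Tpi1, chr6:124814109-124814408, minus strand: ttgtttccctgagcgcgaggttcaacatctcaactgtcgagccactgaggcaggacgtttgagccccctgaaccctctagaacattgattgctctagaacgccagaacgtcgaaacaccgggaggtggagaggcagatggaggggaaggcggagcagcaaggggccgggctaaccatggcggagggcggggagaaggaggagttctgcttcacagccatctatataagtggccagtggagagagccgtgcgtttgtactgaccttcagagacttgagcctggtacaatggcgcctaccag
Pklr, chr3:89136373-89136672, plus strand: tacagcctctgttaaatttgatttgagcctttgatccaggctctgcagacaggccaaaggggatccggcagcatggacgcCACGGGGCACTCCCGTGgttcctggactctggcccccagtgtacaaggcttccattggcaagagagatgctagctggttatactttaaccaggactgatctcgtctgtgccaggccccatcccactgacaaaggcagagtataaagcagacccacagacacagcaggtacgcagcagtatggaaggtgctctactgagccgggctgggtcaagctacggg

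All 8 listed genes, Gpi1 included, matched the RefSeq start regions by symbol, with 12 windows. ACGTG, searched on both strands and contained in CACGTG, was found in a window of 4 genes, Ldha, Pgk1, Aldoa and Pgam1, and in 19.6% of all 32851 windows of this length. Genes with several windows have more places for a match, so this count of genes cannot be set directly against that share of windows. The Ldha window holds the palindrome CACGTG at 2 places, as do 0.594% of windows, and any CACGTG occurs in 7.15% of windows. The spaced pair in Pklr starts at position -170 and was found in 1 of 32851 windows. Its letters are those known from this gene, so the match here and the rarity elsewhere follow from that choice. Looser forms of the carbohydrate response element were not searched, so this share does not tell how many genes hold one. Ldha and Pklr have 2 windows each and Aldoa has 3 (the third overlaps the one shown), and the other windows of Ldha and Pklr and the first of Aldoa hold no match. These matches describe letters in the window only, and binding was not measured.

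On the high-fat diet 4 of the 7 measured members were called lower in the wild type and 3 in the knockout, and none was called higher. In each genotype 5 of the 7 differences were below 0. Aldoa showed the largest difference, 1.45-fold in the wild type and 1.47-fold in the knockout, followed by Tpi1, Ldha and Pgk1 at 1.22- to 1.33-fold. Over all genes 1.69% were called lower in the wild type and 2.66% in the knockout, and 4.3% and 2.45% were called higher, 5.99% and 5.11% in either direction. The member median was -0.30 in the wild type and -0.28 in the knockout, against 0.041 and -0.010 over all genes. Among the 5172 genes with a mean level of at least 8, a limit set after the data were seen and below which no member lies, 2.63% and 3.11% were called lower, with medians of -0.020 and 0.0021. In whole liver, fewer cells of a type and less RNA per cell cannot be told apart. With a variance added for the offset between the runs, none of the members was called in either genotype, each at an adjusted p of 1. Over all genes 7 calls were left in the wild type and 5 in the knockout. That variance was taken from chemosensory receptor genes with a median level of 4.23, far below the members. Before it was added, 11.3% of these receptor genes were called between diets in the wild type and 7.62% in the knockout, in either direction. Whether the offset is as large at the levels of the members was not tested.

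**Figure D1:**
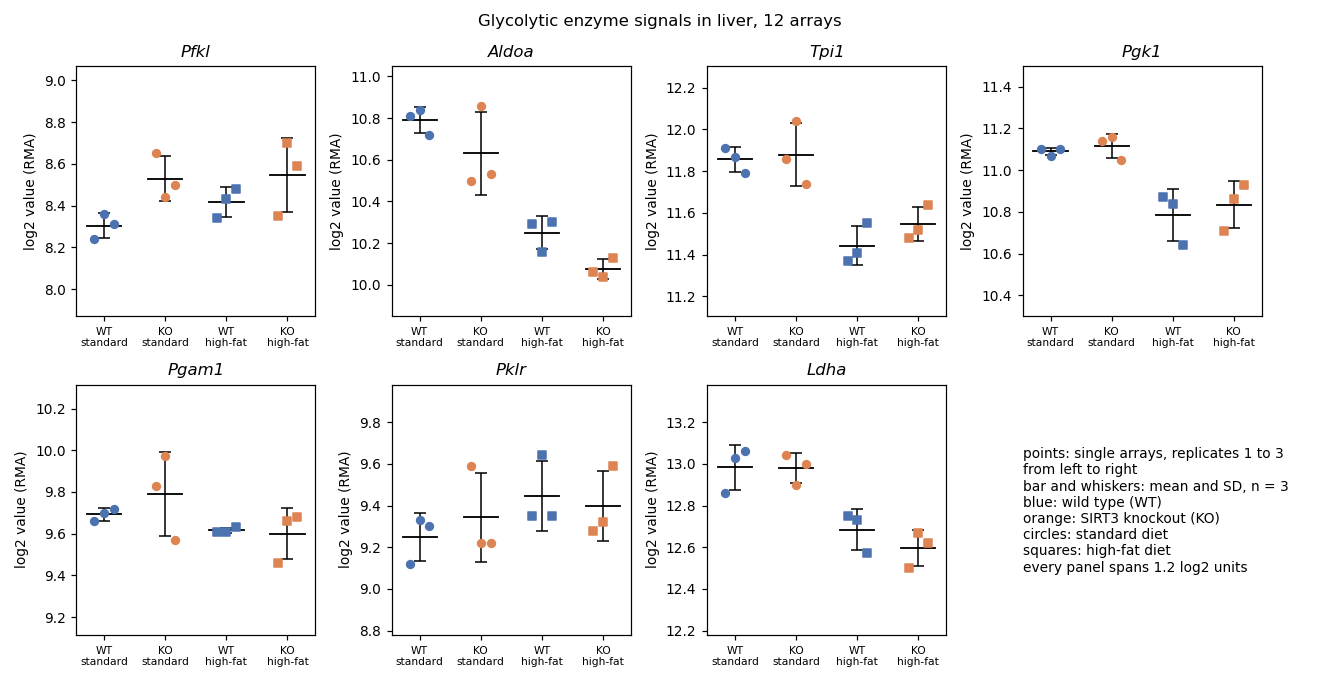
Log2 signals of the 7 measured members on every array, by genotype and diet, with the mean and SD of each group of 3. For Aldoa, Tpi1, Pgk1 and Ldha all 6 high-fat arrays lie below all 6 standard-diet arrays, while for Pfkl, Pgam1 and Pklr the diets overlap.

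Aldoa encodes aldolase A, which splits fructose bisphosphate into triose phosphates. Its signal was 10.81, 10.84 and 10.72 on the wild-type standard-diet arrays and 10.50, 10.86 and 10.53 on the knockout ones. On the high-fat diet it was 10.29, 10.16 and 10.30 in the wild type and 10.06, 10.04 and 10.13 in the knockout. The diets did not overlap in either genotype, and the high-fat knockout arrays lay below the high-fat wild-type arrays as well. The diet difference was -0.54 (SE 0.0958, limma adjusted p = 0.00632) in the wild type and -0.55 (SE 0.0958, limma adjusted p = 0.00568) in the knockout. Ranked from the lowest difference, Aldoa stood at place 171 of 19938 genes in the wild type and 271 in the knockout. Both calls held when any single array was left out, with differences between -0.57 and -0.49 in the wild type and between -0.62 and -0.44 in the knockout.

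Tpi1 encodes triosephosphate isomerase, which interconverts the triose phosphates made by aldolase. It stood at 11.91, 11.87 and 11.79 in the wild type and 11.86, 12.04 and 11.74 in the knockout on the standard diet. The high-fat values were 11.37, 11.41 and 11.55 in the wild type and 11.48, 11.52 and 11.64 in the knockout. All high-fat arrays were again below all standard-diet arrays, with the genotypes overlapping within each diet. The difference was -0.42 (SE 0.0895, adjusted p = 0.0169) in the wild type and -0.33 (SE 0.0895, adjusted p = 0.046) in the knockout. The wild-type call ended without standard-diet wild-type replicate 1 (adjusted p = 0.066) or 2 (0.064) or high-fat wild-type replicate 1 (0.0803). The knockout call for Tpi1 ended on leaving out any of 10 of the 12 arrays, with a highest adjusted p of 0.166 and a difference of -0.25 without standard-diet knockout replicate 2.

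Pgk1 encodes phosphoglycerate kinase, the first ATP-yielding step. Its standard-diet signals were 11.10, 11.07 and 11.10 in the wild type and 11.14, 11.16 and 11.05 in the knockout. The high-fat signals were 10.87, 10.84 and 10.64, and 10.71, 10.86 and 10.93. The spread was larger on the high-fat diet (SD 0.127 and 0.113) than on the standard diet (SD 0.0177 and 0.0628), and the diets did not overlap. The difference was -0.30 (SE 0.0848, adjusted p = 0.0484) in the wild type. It was -0.28 (SE 0.0848, adjusted p = 0.0674) in the knockout, which missed the threshold. The wild-type call for Pgk1 held without knockout standard-diet replicate 3 or knockout high-fat replicate 1 and ended without any of the other 10 arrays, with a highest adjusted p of 0.132. The knockout difference reached an adjusted p of 0.0426 without high-fat wild-type replicate 3.

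Ldha encodes the lactate dehydrogenase subunit that predominates in liver and skeletal muscle. It stood at 12.86, 13.03 and 13.06 in the wild type and 13.04, 12.90 and 13.00 in the knockout on the standard diet. The high-fat signals were 12.75, 12.73 and 12.57 in the wild type and 12.50, 12.67 and 12.62 in the knockout. Every high-fat array lay below every standard-diet array. The difference was -0.30 (SE 0.0825, adjusted p = 0.0462) in the wild type and -0.38 (SE 0.0825, adjusted p = 0.0175) in the knockout. The wild-type call for Ldha ended without any of the 6 wild-type arrays or without high-fat knockout replicate 2 or 3 (adjusted p from 0.0522 to 0.161), and the knockout call ended without standard-diet knockout replicate 1 (0.0538).

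Of the 7 measured members, 4 thus had all 6 high-fat arrays below all 6 standard-diet arrays, which over all genes was the case for 3.85%. Within the wild type alone 5 of 7 members had high-fat arrays that all lay below, the additional member being Pgam1, against 10.9% of genes, and within the knockout 4 of 7 against 13.2%. Averaged over genotypes Aldoa, Tpi1, Pgk1 and Ldha were called lower, where 7.69% of genes were, at differences of -0.55 (SE 0.0677, adjusted p = 0.000184), -0.37 (SE 0.0633, adjusted p = 0.00147), -0.29 (SE 0.06, adjusted p = 0.00462) and -0.34 (SE 0.0584, adjusted p = 0.00154). Both diet comparisons share the runs, so that their likeness is no independent support. In the wild type the balance of calls over all genes rested on the scaling. It was 858 higher and 336 lower as deposited, 647 and 576 after quantile normalization and 425 and 618 after median centring, and the 4 members were called under each. In the knockout Tpi1 lost its call under quantile normalization, cyclic loess and median centring, and Pgk1 was called under quantile normalization and cyclic loess.

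**Figure D2:**
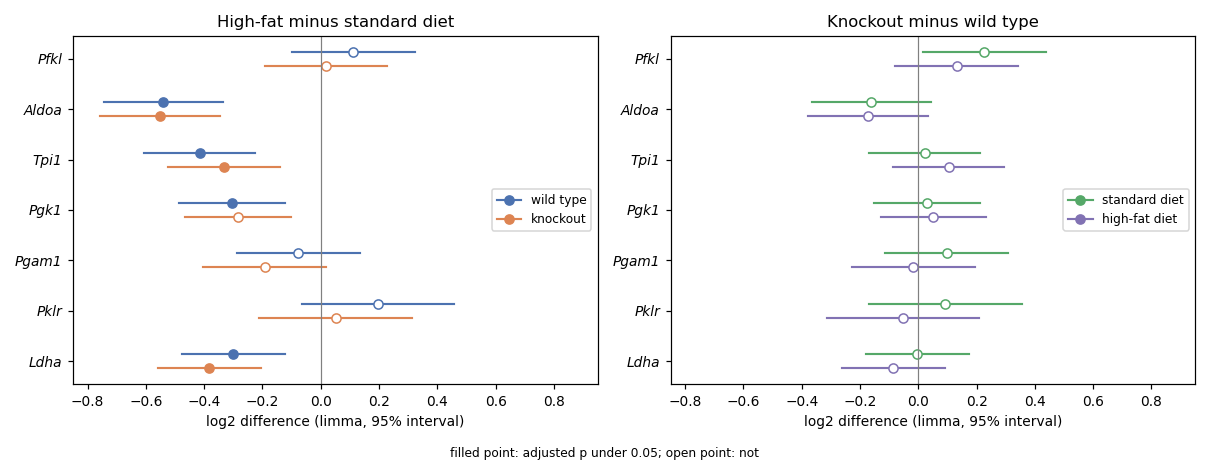
Fitted log2 differences of the 7 members with 95% intervals, between diets in each genotype (left) and between genotypes in each diet (right). Filled points passed the adjusted threshold: 4 wild-type and 3 knockout diet differences, all below 0, and no genotype difference.

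Neither enzyme of the irreversible steps was called between the diets. Pfkl, the liver subunit of phosphofructokinase, which commits fructose phosphate to glycolysis, had values of 8.24, 8.36 and 8.31 in the wild type and 8.65, 8.44 and 8.50 in the knockout on the standard diet. Its high-fat values were 8.34, 8.43 and 8.48, and 8.35, 8.70 and 8.59. Its diet difference was 0.11 (95% interval -0.099 to 0.32) in the wild type and 0.018 (-0.19 to 0.23) in the knockout, neither called. Pklr, the pyruvate kinase of liver and red cells that forms pyruvate and is known to be induced by carbohydrate, lay between 9.12 and 9.59 on the standard diet and between 9.28 and 9.64 on the high-fat diet. All 3 high-fat wild-type arrays of Pklr lay above the standard-diet ones, by 0.20 on average (interval -0.065 to 0.46, adjusted p = 0.363), as did the arrays for 19.4% of all genes, and the knockout difference was 0.051 (-0.21 to 0.31). The intervals include falls as well as rises for both genes, so equal expression between the diets was not shown. They do leave out falls as large as the Aldoa differences.

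Pgam1 encodes phosphoglycerate mutase, which prepares phosphoglycerate for the enolase step. It ranged from 9.57 to 9.97 on the standard diet and from 9.46 to 9.68 on the high-fat diet, with differences of -0.077 (SE 0.0987) in the wild type and -0.19 (SE 0.0987) in the knockout (adjusted p = 0.697 and 0.278). These values are from the brightest of its 3 probe sets, 10497321. The other probe sets, 10463168 and 10561302, hold identical values on all 12 arrays, differed from the first by up to 0.21, and gave -0.064 and -0.089 for the same comparisons. Pgk1 has the same arrangement, with 10399379 and 10498313 identical on all 12 arrays and 10601390 within 0.0301 of them. Probe sets with identical values are not independent measurements, and signal from near-identical gene copies cannot be told apart from that of the gene. The third Pgk1 probe set gave -0.29 in each genotype.

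Between the genotypes no member was called on either diet, against 0.00502% of genes called on the standard diet and 0% on the high-fat diet. Over all genes, limma left 1939 at an unadjusted p under 0.05 (9.73%) on the standard diet and 571 (2.86%) on the high-fat diet. Pfkl was the single member at an unadjusted p under 0.05 on the standard diet, and none was on the high-fat diet. Its difference in the knockout was 0.23 (SE 0.0987, interval 0.015 to 0.44, adjusted p = 0.503) on the standard diet, where all 3 knockout arrays lay above the wild-type ones, as for 9.88% of genes. On the high-fat diet it was 0.13 (interval -0.078 to 0.34). Averaged over diets, Pfkl stood at 0.18 (SE 0.0698) and Aldoa at -0.17 (SE 0.0677), each with a limma adjusted p of 0.739, and 0% of genes were called. Aldoa was -0.16 (interval -0.37 to 0.044) on the standard diet and -0.17 (interval -0.38 to 0.033) on the high-fat diet, where the groups did not overlap, as for 4.27% of genes in that direction. Without standard-diet knockout replicate 2, the array with high muscle markers, the standard-diet difference of Aldoa was -0.28. It was still not called (limma adjusted p = 0.955). The differences of Tpi1, Pgk1, Pgam1, Pklr and Ldha lay between -0.085 and 0.10 over both diets, all with intervals that include 0. The widest of these intervals, for Pklr on the standard diet, ran from -0.17 to 0.35.

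The diet difference was tested between the genotypes as an interaction, and no member and 0% of all genes were called. In limma 944 genes (4.73%) had an unadjusted p under 0.05, and no member did. The interaction was smallest for Aldoa at -0.011 (interval -0.30 to 0.28) and furthest from 0 for Pklr at -0.15 (interval -0.52 to 0.22). The others lay between -0.12 and 0.083, each with an adjusted p of at least 0.956. For Pgk1, called in the wild type but not in the knockout, the interaction was 0.022 (interval -0.23 to 0.28), so a difference between genotypes was not shown.

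The order of the group means followed from this. For Aldoa and Ldha it was standard-diet wild type, standard-diet knockout, high-fat wild type and high-fat knockout from highest to lowest. For Tpi1 and Pgk1 the genotypes stood the other way round within each diet. In all 4 genes the neighbouring groups overlapped within a diet, except the high-fat groups of Aldoa, and did not overlap across the diets. Pfkl was highest in the high-fat knockout and lowest in the standard-diet wild type, and Pklr highest in the high-fat wild type and lowest in the standard-diet wild type, with overlap between all neighbours. Pgam1 followed the order standard-diet knockout, standard-diet wild type, high-fat wild type and high-fat knockout, and the standard-diet wild type and high-fat wild type did not overlap.

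The standard-diet knockout livers were not alike. On replicate 2 the mean of 10 skeletal muscle markers was 7.92, against 6.24 to 6.55 on the other 11 arrays, and each of the 10 was highest there. Acta1, the actin of skeletal muscle, reached 9.80 on that array against at most 7.49 elsewhere, and Ckm, the muscle creatine kinase, 8.97 against at most 7.67. On the same array 4 of the 7 members, Aldoa, Tpi1, Pgk1 and Pgam1, had their highest value of all 12 arrays, and so did 17.6% of all genes. Of 18 other measured glycolytic enzymes 4 did too, among them the muscle isoforms Pgam2 (6.84 against at most 6.44) and Eno3 (7.33 against at most 7.30). The part of the muscle markers in the signals of these enzymes was not tested. Without this array the knockout diet difference was -0.44 for Aldoa (adjusted p = 0.0193) and -0.42 for Ldha (0.0288), both still called, -0.25 for Tpi1 (0.166), -0.26 for Pgk1 (0.18) and -0.10 for Pgam1 (0.657). Averaged over genotypes the 4 called members were still called without it, Aldoa at -0.49, Tpi1 at -0.33, Pgk1 at -0.28 and Ldha at -0.36. Between genotypes on the standard diet, Pfkl was 0.27 without it, Tpi1 -0.061, Pgk1 0.0071, Pgam1 0.010, Pklr 0.15 and Ldha 0.037, none of them called. The genotype differences averaged over diets were then 0.20 for Pfkl and -0.22 for Aldoa, also not called. The interaction was then 0.11 for Aldoa, -0.21 for Pklr and between -0.14 and 0.16 for the others, with a limma adjusted p of 1 for each. In the wild-type diet comparison, which uses this array for the variance only, Pgk1 lost its call without it (limma adjusted p = 0.0552).

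**Figure D3:**
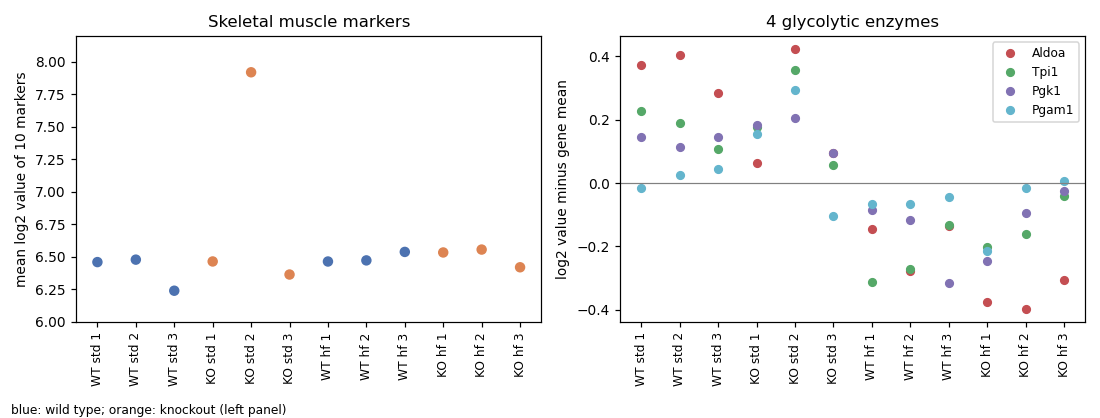
Mean log2 value of 10 skeletal muscle markers (left) and log2 values of Aldoa, Tpi1, Pgk1 and Pgam1 relative to each gene's mean (right) on each array, wild type (WT) and knockout (KO), standard (std) and high-fat (hf) diet. Standard-diet knockout replicate 2 stands at 7.92 for the markers, above all other arrays, and is highest for each of the 4 enzymes.

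Other cell markers moved less evenly. Leukocyte markers, 11 of 12 measured, had list means of 5.90 to 5.92 in the standard-diet wild type, 5.93 to 6.10 in the standard-diet knockout, 6.03 to 6.32 in the high-fat wild type and 5.93 to 6.12 in the high-fat knockout. In the wild type 3 of the 11 were called higher on the high-fat diet, the common leukocyte antigen Ptprc (0.63), Cd79a of B cells (0.57) and Cd3e of T cells (0.45). The members called in that comparison moved the other way. Endothelial and stellate markers, 10 of 10 measured, had list means of 7.55 to 7.60 in the standard-diet wild type and 7.72 to 7.83 in the high-fat wild type, without overlap, and 7.51 to 7.67 and 7.60 to 7.71 in the knockout. Stab2, a scavenger receptor of liver endothelium, was called higher in both genotypes (0.39 and 0.41, limma adjusted p = 0.0389 and 0.0322). Among the hepatocyte markers the fibrinogen chain Fga was lower in the wild type (-0.36, limma adjusted p = 0.0328), and bile duct, macrophage, erythroid (3 of 10 measured), and adipose and pancreas markers had no call between diets within either genotype. Averaged over genotypes, Sox9 of bile ducts (-0.27, limma adjusted p = 0.0335) and the hepatocyte marker Tat (-0.39, limma adjusted p = 0.0181) were called lower, and the stellate and fibroblast genes Lrat (0.31) and Col3a1 (0.27) higher (limma adjusted p = 0.0269 and 0.0379). These are single genes of their lists. Of the 6 bile duct markers 3 lay above 0 and 3 below (median -0.036). Of the 10 hepatocyte markers 4 lay above and 6 below (median -0.046), and of the 10 endothelial and stellate markers 7 and 3 (median 0.11). The part of these markers in the member signals was not tested.

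Members differed in how they varied between arrays. The mean of the 7 members, each centred on its own mean, was between 0.034 and 0.18 on the standard-diet arrays, and 4 to 7 members lay above their mean on each. On the high-fat arrays it was between -0.22 and -0.028, and 0 to 3 members did. Across the 12 arrays, which share runs and diets, Aldoa, Tpi1, Pgk1 and Ldha were correlated with each other at Pearson r of 0.69 to 0.88, as a description without a test. With each diet centred on its mean these pairs ranged from -0.61 for Tpi1 with Ldha to 0.38 for Pgk1 with Ldha. Pfkl and Aldoa had r of -0.47 over all arrays and -0.62 within diets. The genes whose pattern was closest to the mean of the members over the 12 arrays were Xpnpep1 (r 0.979), Eif3f (0.95), Timm17b (0.946), Mvb12a (0.945) and Aup1 (0.939). Within diets they were Tpcn1 (0.914), Mcm3 (0.914), Xpnpep1 (0.903), Vps28 (0.896) and Zdhhc9 (0.884). The closest to single members within diets were Rdh5 for Pfkl (0.915), Tgfbi for Aldoa (0.86), Atp5g1 for Tpi1 (0.929), Ypel5 for Pgk1 (0.954), Tmem160 for Pgam1 (0.943), Masp1 for Pklr (0.945) and Xrcc1 for Ldha (0.932).

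Among the other enzymes of the pathway 1 was called between the diets within a genotype, the same gene in both. The list holds 18 measured enzymes other than the members. That gene was Aldoc, aldolase C, the aldolase known from brain, which was lower on the high-fat diet in both genotypes. It stood at 8.16, 7.86 and 7.78 in the wild type and 8.06, 8.10 and 8.05 in the knockout on the standard diet. The high-fat values were 7.34, 7.25 and 7.08, and 7.34, 7.28 and 7.52, with no overlap of the diets. The difference for Aldoc was -0.71 (SE 0.11, adjusted p = 0.00321) in the wild type and -0.69 (SE 0.11, adjusted p = 0.00395) in the knockout, and both calls held without any single array. The median of the 18 was 0.14 in the wild type, with 13 above 0, and -0.026 in the knockout, with 8 above 0.

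Regulators of glycolytic flux, 13 of 14 measured, gave 1 call higher in the wild type and 1 higher and 1 lower in the knockout. Pdk4, a kinase that shuts off pyruvate dehydrogenase during fasting, was lower in the high-fat knockout by -1.58 (SE 0.335, adjusted p = 0.0156), a call that ended without standard-diet knockout replicate 1 or high-fat knockout replicate 2. Its relative Pdk2 was higher there by 0.53 (adjusted p = 0.0192) and Pdk3 was higher in the wild type by 0.49 (adjusted p = 0.0216). In the other genotype each moved in the same direction without a call. Pdk4 stood at -0.96 and Pdk2 at 0.37 in the wild type (limma adjusted p = 0.104 and 0.0765). Pdk3 stood at 0.35 in the knockout (limma adjusted p = 0.0877). The Pdk2 and Pdk3 calls also ended without single arrays, 3 for Pdk2 and 4 for Pdk3. Of 6 measured genes of pyruvate dehydrogenase and pyruvate transport none was called between diets within either genotype or between genotypes, with the mitochondrial pyruvate carrier subunit Mpc1 at -0.38 in the wild type and -0.23 in the knockout between diets (adjusted p = 0.0934 and 0.312).

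Gluconeogenesis, 11 of 11 measured, had 1 call in each diet comparison. Got1, the cytosolic aspartate transaminase, was lower by -0.61 (SE 0.138, adjusted p = 0.0218) in the wild type and -0.76 (SE 0.138, adjusted p = 0.00681) in the knockout, and the wild-type call ended without any of 4 single arrays. G6pc, the last step of glucose release, stood at -0.69 in the knockout (adjusted p = 0.113). Of the 12 sugar and lactate transporters the fructose transporter Slc2a5 was called higher in the knockout (0.62, adjusted p = 0.037), a call that ended without any of 6 single arrays. In the wild type Slc2a5 stood at 0.34 (limma adjusted p = 0.215). The monocarboxylate carrier Slc16a1 stood at -0.92 in the knockout (adjusted p = 0.0645) and at -0.57 in the wild type (limma adjusted p = 0.229).

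Entry of other sugars, 7 of 10 genes measured, gave 2 calls lower in the high-fat knockout, Mpi (-0.41, adjusted p = 0.0264) and Tkfc (-0.43, adjusted p = 0.0415), which form fructose phosphate from mannose phosphate and a triose phosphate from glyceraldehyde. Both calls ended without several single arrays, 5 for Mpi and 9 for Tkfc. In the wild type, where neither was called, the mean of Tkfc was 11.33 on the standard diet and 10.93 on the high-fat diet. That of Mpi was 8.04 and 7.78, so both genes were lower in each genotype. No gene of the pentose phosphate pathway (7 measured) or of glycogen metabolism (8 measured) was called between diets within either genotype or between genotypes. The glycogen genes had medians of 0.25 in the wild type and 0.19 in the knockout between diets, with the phosphorylase Pygl at 0.31 (adjusted p = 0.0506) in the wild type and the synthase Gys2 at 0.40 (adjusted p = 0.0641) in the knockout.

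**Figure D4:**
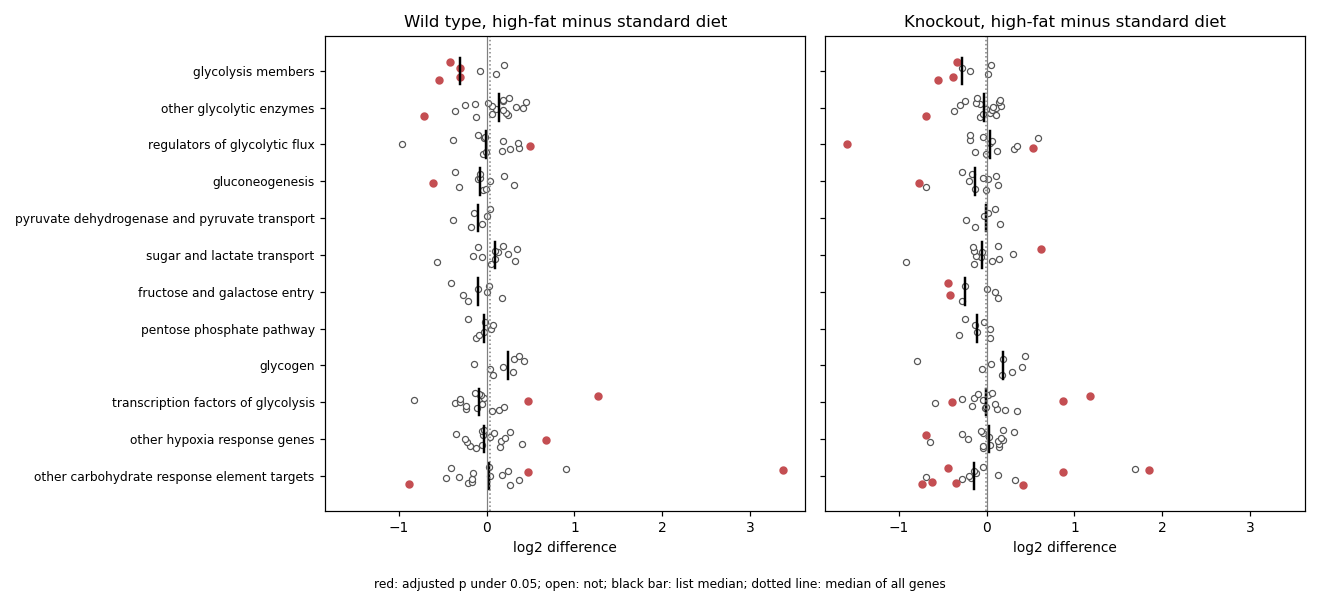
Log2 differences between the diets for the 7 members and for the genes of 11 lists of carbohydrate metabolism and its regulation, in the wild type (left) and the knockout (right). Each point is a gene, red where called, and black bars are list medians. The members' median, -0.30 and -0.28, lies below that of every other list. Members and lists were chosen with earlier results of these data known, so this order is a description without a test.

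Transcription factors of the pathway, 17 of 18 measured, gave 2 calls higher in each genotype and 1 lower in the knockout. Mlxipl, which encodes ChREBP, the factor that acts through the carbohydrate response element, was 8.88, 9.14 and 9.26 in the wild type and 8.93, 8.76 and 9.26 in the knockout on the standard diet. Its high-fat values were 9.44, 9.68 and 9.57, and 9.91, 9.78 and 9.86, above the standard-diet arrays throughout. Its difference was 0.47 (SE 0.126, adjusted p = 0.0414) in the wild type, lost without any of 8 single arrays, and 0.87 (SE 0.126, adjusted p = 0.00221) in the knockout, held without each. Srebf1, which encodes SREBP-1, was higher by 1.27 (SE 0.14, adjusted p = 0.000274) and 1.18 (SE 0.14, adjusted p = 0.000609). Mlx, the partner of ChREBP, was lower in the knockout by -0.39 (adjusted p = 0.0421), a call that ended without any of 9 single arrays. Its wild-type means were 8.63 on the standard diet and 8.33 on the high-fat diet, without a call. Hif1a and the other factors were not called within either genotype.

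The other targets of the carbohydrate response element were called in both directions. Of 17 measured, which include Mlxipl itself, 2 were called higher and 1 lower in the wild type, and 3 higher and 4 lower in the knockout. Acacb, an acetyl-CoA carboxylase that restrains fatty acid oxidation, was lower by -0.88 and -0.73 (adjusted p = 0.000677 and 0.00242), and the desaturase Scd1 was higher by 3.38 and 1.85 (adjusted p = 2.07e-06 and 0.000609). Scd1 was also the 1 gene of the 19938 called between genotypes, higher in the standard-diet knockout by 1.71 (limma adjusted p = 0.0261), a call that ended without any of 7 single arrays. Pklr, whose window holds the arrangement shown above, was not called. Of 17 measured hypoxia response genes other than the members, 1 was called higher in the wild type, the oxygen sensor Egln3 (0.67, adjusted p = 0.00661), and 1 lower in the knockout, Ndrg1 (-0.69, adjusted p = 0.0369, lost without any of 7 single arrays). Their medians were -0.033 and 0.026, whereas Aldoa, Pgk1 and Ldha, which belong to the classical hypoxia targets, had the lower signals given above. With the variance for the offset between runs added, only Scd1 in the wild type kept its call among the genes called in these lists within a genotype (limma adjusted p = 0.000367).

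Averaged over genotypes, where 18% of all genes were called between diets, further genes of these lists were called. Among the other glycolytic enzymes Eno4, an enolase known from sperm, was lower beside Aldoc, by -0.36 (SE 0.0736, limma adjusted p = 0.00466). Of the regulators of flux, Pdk1 (0.29), Pdk2 (0.45) and Pdk3 (0.42) were higher and Pdk4 was lower (-1.27). Their limma adjusted p ran from 0.00241 to 0.0271. Of the 8 glycogen genes 4 were higher, by 0.25 to 0.40, namely Pygl, Gys2, Ugp2, which makes the sugar donor of glycogen synthesis, and Gyg, the primer of glycogen. Of the 7 genes of the pentose phosphate pathway 2 were lower, Tkt at -0.23 and Pgd at -0.20 (limma adjusted p = 0.0242 and 0.0463). Of the genes for entry of other sugars, Tkfc (-0.42), Mpi (-0.34) and Galt (-0.24) were lower (limma adjusted p = 0.00328, 0.00457 and 0.0094). Mpc1 was lower by -0.31 (limma adjusted p = 0.0302) and the lactate carrier Slc16a1 by -0.74 (limma adjusted p = 0.0161). Slc2a2, the main glucose transporter of hepatocytes, was higher by 0.27 (limma adjusted p = 0.0213), and Nr1h3, which encodes the liver X receptor alpha, was lower by -0.29 (limma adjusted p = 0.00715). Of the 17 carbohydrate response element targets 5 were higher and 4 lower, with Elovl6 (0.35) and Thrsp (1.30) among the higher ones. Of the 17 hypoxia response genes other than the members 3 were higher, Egln3 (0.43), Pdk1 and Car9 (0.27), and 1 was lower, Ddit4 (-0.44). With the variance for the offset between runs added, 9 genes of the whole table were called in this comparison.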

How the data were processed

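The deposited log2 signals come from RMA, run in the Affymetrix Expression Console according to the submitters' processing notes, with version and options not given in the sources used here. RMA corrects background, gives the arrays of a run a common distribution and summarises probes, so small differences between separate runs can arise from processing. No further normalization was applied. Of 35557 probe sets, 21789 had 1 gene symbol, 1621 several and 12147 were not listed in the platform table. Entrez IDs of 21698 matched RefSeq symbols. The brightest probe set was kept for each of 999 genes with several, which left 19938 genes.

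The fit used limma 3.58.1 (R 4.3.3) with a separate mean for each of the 4 groups over the 12 arrays (empirical Bayes along an intensity trend, 8 residual degrees of freedom), with Benjamini-Hochberg adjustment over all genes and a threshold of 0.05. The fit was tested on simulated data for the comparison of knockout with wild type on the standard diet. It recovered 40.3% of the added log2 changes of 0.5, 95.5% of those of 1 and 100% of those of 2. Smaller changes were not simulated. The number of arrays limits the precision. An offset between the runs (SD 0.214) was taken from how both diet comparisons covary across 1233 chemosensory receptor genes. Their median level was 4.23, against 6.70 over all genes. Members and lists were chosen with earlier results of these data known. Named genes are all member probe sets, called genes of each list or otherwise those with the smallest p, and the genes with the most similar pattern. Figures were drawn with matplotlib 3.10.9.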

Additional observations from a re-analysis of the deposited data

How the results depend on the processing

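No member was called for genotype or interaction under any of the 27 alternatives. For the wild-type diet comparison the 4 calls became 2 without an intensity trend, with the replicate block, with all probe sets and without 2 arrays with acute-phase signals (standard-diet knockout replicate 1 and high-fat wild-type replicate 3), 1 at an adjusted p under 0.01, and 0 with a 1.5-fold minimum or the run variance. They ranged from 1 to 4 on leaving out single arrays. For the knockout the 3 calls became 2 without an intensity trend, with the replicate block, with all probe sets and with median centring. They also became 2 without the acute-phase arrays, and 4 with array weights or at 0.1. They became 1 with only the compared groups or at 0.01, and 0 with a 1.5-fold minimum or the run variance. On leaving out single arrays they ranged from 1 to 4. Averaged over genotypes they became 0 with a 1.5-fold minimum or the run variance, and ranged from 4 to 5 otherwise on leaving out single arrays. Arrays of the same replicate number were not taken as pairs: correlations of same-numbered arrays ranged from -0.212 to 0.407, and the block moved the wild-type count alone by over 1.5 times. Over all genes the wild-type count of 1194 became 2742 with array weights, 346 with genes above the median level, 2214 and 274 at 0.1 and 0.01, 300 with a 1.5-fold minimum and 7 with the run variance. The knockout count of 1018 became 1767 with array weights, 381 with only the compared groups, 431 with genes above the median level, 1532 with quantile normalization, 625 without the acute-phase arrays, 1926 and 232 at 0.1 and 0.01, 338 with a 1.5-fold minimum and 5 with the run variance. Without single arrays these counts ranged from 389 to 1322 in the wild type and from 360 to 1286 in the knockout. Averaged over genotypes, 2049 genes were higher and 1533 lower, against 1510 and 1989 with median centring. The count averaged over genotypes became 1628 with genes above the median level, 1519 at 0.01, 289 with a 1.5-fold minimum and 9 with the run variance. The cause of these changes was not tested, beyond the stricter limits themselves.

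Small uncalled differences changed sign. On the standard diet between genotypes, Ldha became 0.010 with array weights, 0.045 with quantile normalization and 0.020 with cyclic loess, and ranged from -0.064 to 0.037 without single arrays. Tpi1 became -0.058 and Pgk1 -0.049 with median centring, and Tpi1 ranged from -0.061 to 0.093 without single arrays. Pklr became -0.029 without the acute-phase arrays and ranged from -0.029 to 0.15. On the high-fat diet Pgam1 became 0.019, 0.012 and 0.012 with array weights, quantile normalization and cyclic loess (-0.057 to 0.053 without single arrays), Pgk1 became -0.020 without the acute-phase arrays (-0.020 to 0.11), and Pklr ranged from -0.15 to 0.043. Between diets in the knockout, Pklr became -0.012 with array weights (-0.044 to 0.17) and Pfkl ranged from -0.057 to 0.12. For the interaction, Pgk1 became -0.0068, -0.0028 and -0.0091 with array weights, quantile normalization and cyclic loess and -0.038 without the acute-phase arrays (-0.051 to 0.084), Aldoa became 0.082 (-0.077 to 0.11) and Ldha 0.012 with median centring, and Pfkl ranged from -0.17 to 0.0043. Averaged over diets, Pklr became -0.013 with median centring and -0.065 without the acute-phase arrays (-0.041 to 0.068), Pgk1 -0.0012 without them, and Pgam1 ranged from -0.0033 to 0.096.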
